A study of Mus musculus with 11 samples.

Results

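The 9 genes described here belong to families of protease inhibitors: the tissue inhibitors of metalloproteinases Timp1, Timp2, Timp3 and Timp4, the serpins Serpina3n, Serpina3g, Serpine2 and Serpinf1, and the broad protease trap A2m. They were chosen by gene symbol, taking the entry with most counts where a symbol was repeated, and they are 9 of 37991 genes in the count table. RNA sequencing covered 11 libraries in 4 groups, all from C57BL/6 mice. The sorted groups were GFP+ cells of the spinal cord of Col1a1GFP reporter mice, in which the collagen I gene promoter drives green fluorescent protein, taken in health (control, n = 3), and at 5 (day 5, n = 3) or 10 days (day 10, n = 3) after the first symptoms of experimental autoimmune encephalomyelitis (EAE). EAE is an immune attack on myelin used as a model of multiple sclerosis. The last group was homogenate of whole healthy cord (whole cord, n = 2) from mice labelled C57BL/6 with no reporter. Every sorted library pooled 2 to 3 cords and every whole cord library came from 1 cord, so sorted replicates are separate pools of animals. The gate takes any cell in which the reporter is on, and neither the age nor the sex of the mice is given in the sources used here. The labels of the whole cord libraries repeat the sorting protocol, whereas the design text calls them homogenate, which was followed.

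TIMPs block the active site of matrix metalloproteinases and of related membrane sheddases, and so slow the breakdown of matrix and the release of cell-surface proteins. Inhibitory serpins offer the protease a bait loop and, once cut, lock the enzyme in a covalent complex, while alpha-2-macroglobulin closes around almost any endoproteinase. Complexes of both kinds are taken up by receptors such as Lrp1. Fibroblasts of the meninges and of the vessel wall make many of these proteins, and astrocytes make several of them in the injured nervous system.

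Timp1 and Serpina3g had the largest fold changes of the 9 in both disease groups, and Serpina3n is another gene of the Serpina3 cluster on chromosome 12. The promoter windows of these 3 genes are shown because their transcripts differed most (Timp1, Serpina3g) or much less (Serpina3n) between health and disease. Each window runs from 250 bases before to 50 bases after the start site in RefSeq (GRCm38.p6, 5′ to 3′, plus strand): Serpina3g at chr12:104235897-104236196, Serpina3n at chr12:104406458-104406757 and Timp1 at chrX:20869916-20870215. Capitals mark a match to the GAS element (TTCNNNGAA), the kind of sequence that STAT factors bind.
Serpina3g: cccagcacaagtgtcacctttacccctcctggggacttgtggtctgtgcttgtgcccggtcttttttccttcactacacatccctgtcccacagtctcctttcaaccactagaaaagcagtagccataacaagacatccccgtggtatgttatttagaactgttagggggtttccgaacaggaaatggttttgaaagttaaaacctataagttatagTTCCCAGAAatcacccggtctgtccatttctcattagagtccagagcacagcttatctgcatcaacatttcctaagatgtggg
Serpina3n: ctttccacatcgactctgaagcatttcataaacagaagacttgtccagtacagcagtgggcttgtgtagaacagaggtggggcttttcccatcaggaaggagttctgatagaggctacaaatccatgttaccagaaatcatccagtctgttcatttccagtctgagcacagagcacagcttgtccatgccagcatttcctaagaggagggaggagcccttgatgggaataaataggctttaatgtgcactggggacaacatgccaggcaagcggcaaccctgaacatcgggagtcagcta
Timp1: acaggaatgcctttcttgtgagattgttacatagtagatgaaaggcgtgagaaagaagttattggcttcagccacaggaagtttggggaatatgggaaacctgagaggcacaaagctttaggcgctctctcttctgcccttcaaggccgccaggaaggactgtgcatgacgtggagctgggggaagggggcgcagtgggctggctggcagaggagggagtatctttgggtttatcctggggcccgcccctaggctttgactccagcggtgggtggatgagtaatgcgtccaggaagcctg
Of the 9 members, 8 had a promoter entry, and A2m is named only. Both strands were searched for the GAS element, for the AP-1 element TGANTCA and for the core of the interferon-stimulated response element GAAANNGAA. The single match among the 8 windows was the GAS element of Serpina3g, which read TTCCCAGAA and began 33 bases before the start site. Of 32851 mouse promoter windows of the same length, 8.3% held a GAS match, 7.81% an AP-1 match and 8.56% an ISRE core match. A match of letters is a description and not a shown binding site.

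Libraries held 7123291 to 12238751 counts. Levels are counts scaled to library size with TMM factors (CPM), and differences as log2 fold changes with their standard error (SE). Calls are those with an adjusted p below 0.05 in edgeR's quasi-likelihood test. Sums of markers, single markers and sums of TIMP or Mmp genes are counts scaled to the library total alone. All 9 members passed the filter on low counts. The 10 fibroblast markers summed to 22809 to 28712 CPM in control and 159.6 to 279.6 CPM in whole cord. Col1a1, which is one of them, stood at 5311 to 8335 CPM in control and 31.1 to 67.6 CPM in whole cord. Its promoter drives the reporter, so its high level was set by the sort. Markers of other cells were also read. The endothelial gene Cdh5 stood at 436 to 482 CPM at day 5, at 362 to 419 CPM at day 10 and at 210 to 240 CPM in control. In whole cord it stood at 16.2 and 23.45 CPM. Of the 10 endothelial markers, 1 was higher and 6 were lower in control than in whole cord. On the first principal component, which held 48.8% of the variance, day 10 replicate 3 lay at 53.8, inside the day 5 range of 51.9 to 59.2, whereas day 10 replicates 1 and 2 lay at 12 and 3.38 and controls between -81.6 and -78.0. Day 10 values are also given without replicate 3, an alternative that for the gene lists was chosen after the data were seen.

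The first question is how the inhibitors differed between cells from inflamed and healthy cord. At day 5, 3 of the 9 members rose (Timp1, Serpina3g and Serpine2) and none fell, where 13.3% of the 15972 genes tested rose and 10.6% fell. The median change of the 9 was 0.52 on the log2 scale, against 0.0011 over all genes tested. At an unadjusted p under 0.05, 1 member was lower (Timp3) and 4 were higher (Serpina3n besides the 3 called). DESeq2 and limma voom each called 1 member lower, which was Timp3. At day 10 the same 3 genes rose and Timp3 fell, where 8.49% of all genes rose and 4.98% fell. Without day 10 replicate 3 the same 3 were called higher and none lower by edgeR, where 4.19% of all genes rose and 2.21% fell, and Timp3 had an adjusted p of 0.0661. Both comparisons use the same 3 control libraries.

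**Figure D1:**
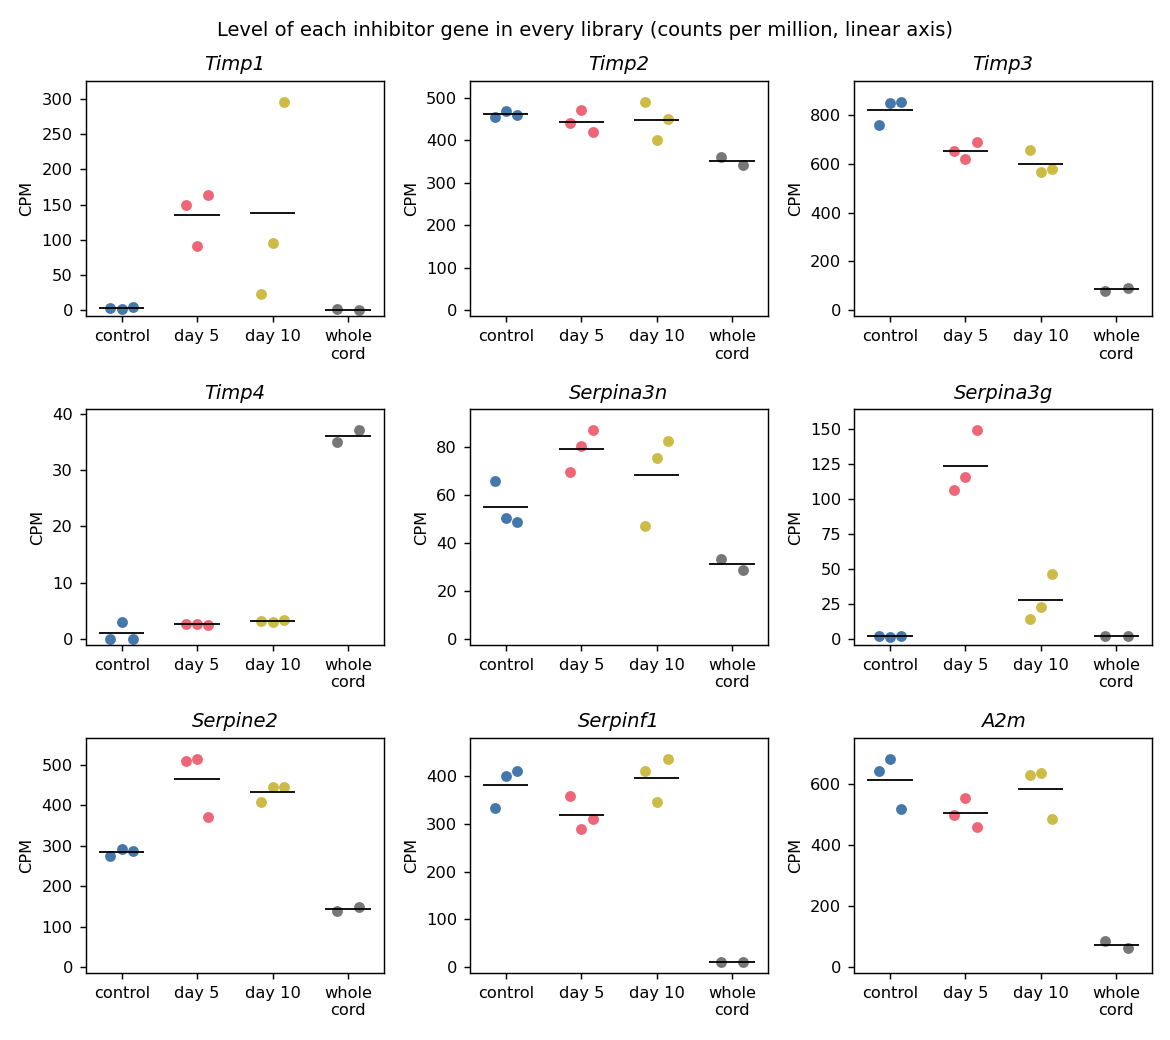
Level of each of the 9 inhibitor genes in every library, in CPM on a linear axis that differs between panels; a point is a library and the line is the group mean. Whole cord was scaled in a separate fit with the control, so that its CPM is set beside the sorted groups only roughly; Timp1 and Serpina3g are near 0 in control and high at day 5, and day 10 points of Timp1 spread from 23.5 to 296 CPM.

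Timp1, the soluble inhibitor that tissues induce on injury and inflammation, had 149, 91.4 and 164 CPM in the day 5 libraries, against 3.80, 1.14 and 4.98 CPM in the control libraries. Every day 5 library lay far above every control library. The log2 fold change was 5.34 with an SE of 1.08 (95% interval 2.75 to 7.94, adjusted p = 0.0137). In the day 10 libraries Timp1 had 23.5, 95.6 and 296 CPM. These values span more than the whole day 5 group, with replicate 1 below it and replicate 3 above it, and all lay above the control libraries. The log2 fold change against control was 5.38 with an SE of 1.08 (adjusted p = 0.0224), and it was 4.15 without replicate 3 (adjusted p = 0.0415). The call at day 5 was lost without control replicate 1 (adjusted p = 0.0512). The call at day 10 was lost without control replicates 1, 3 or 4 (adjusted p = 0.0748, 0.0770 and 0.0590), and with limma voom (adjusted p = 0.0631). Timp1 lies inside the neuronal gene Syn1 in the GRCm38 annotation but shares no exonic base with it.

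Timp3, the inhibitor that stays bound to the matrix and also blocks the sheddase Adam17, was lower at day 10. It had 654, 567 and 578 CPM in the day 10 libraries, against 758, 847 and 853 CPM in the control libraries. The groups did not overlap, and Timp3 fell by 0.45 on the log2 scale (SE 0.12, adjusted p = 0.0257). At day 5 it had 653, 620 and 687 CPM, also below every control library, and differed by -0.33 on the log2 scale (SE 0.12, adjusted p = 0.0671), which DESeq2 (adjusted p = 0.0272) and limma voom (adjusted p = 0.0465) called. The call at day 10 was lost when any of control replicates 3 and 4 or day 10 replicates 2 and 3 was left out (adjusted p = 0.0721, 0.0879, 0.0643 and 0.0661). Of the exonic bases of Timp3, 21.3% overlap the opposite-strand gene Syn3, whose reads could not be told apart from those of Timp3 without strand. The 3 Syn genes that hold a TIMP gene summed to only 8.81 to 25.1 CPM in any sorted library. The 10 markers of mural cells, the contractile cells around vessels, summed to 2919 to 4911 CPM at day 5, 1447 to 2634 CPM at day 10 and 3425 to 6353 CPM in control. Of these, 2 were called higher and 0 lower at day 5 (median log2 -0.03). At day 10, 0 were higher and 3 lower (median log2 -1.02). Myh11, the leading gene of the list, stood at 241 to 737 CPM at day 5 and 236 to 677 CPM at day 10. In control it stood at 1252 to 2297 CPM. The part of mural cells in the change of Timp3 was not tested. In bulk libraries fewer cells of a type and less RNA per cell cannot be told apart.

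Timp2, which besides inhibiting metalloproteinases helps Mmp14 to activate pro-Mmp2, had the smallest differences from control of the 9 at both stages. It had 442, 471 and 419 CPM at day 5, against 456, 469 and 460 CPM in control, and the groups overlapped. The log2 difference was -0.06 (95% interval -0.31 to 0.20). At day 10 it had 491, 402 and 451 CPM, with a log2 difference from control of -0.04 (95% interval -0.30 to 0.21), or -0.06 without replicate 3.

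Timp4, the TIMP best known from heart and brain, was close to absent. Counts were 22, 19 and 19 in the day 5 libraries and 29, 30 and 28 in the day 10 libraries, against 0, 29 and 0 in the control libraries. Control replicate 3 alone therefore held all control reads, and the disease libraries did not lie above it at day 5. Neither comparison passed the test (day 5: log2 1.33, 95% interval -1.10 to 3.76, adjusted p = 0.427; day 10: log2 1.62, 95% interval -0.79 to 4.04, adjusted p = 0.383). Without control replicate 3 the control held no reads, and both would be called (adjusted p = 0.00135 and 0.00281). Without day 10 replicate 3 the day 10 value was 1.58 (adjusted p = 0.553).

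Within the TIMP family the mix of counts shifted toward Timp1. Timp1 made up 11.9%, 7.72% and 12.9% of TIMP counts at day 5, against 0.312%, 0.0861% and 0.378% in control. At day 10 its share was 2.01%, 8.96% and 22.3%. Timp3 made up 52.4%, 52.3% and 54.0% at day 5 and 55.8%, 53.1% and 43.5% at day 10, against 62.2%, 64.2% and 64.7% in control. All disease libraries lay above control for the Timp1 share and below it for the Timp3 share. The share of Timp2 overlapped between groups. These are shares of counts and not of molecules, since longer transcripts give more counts.

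**Figure D2:**
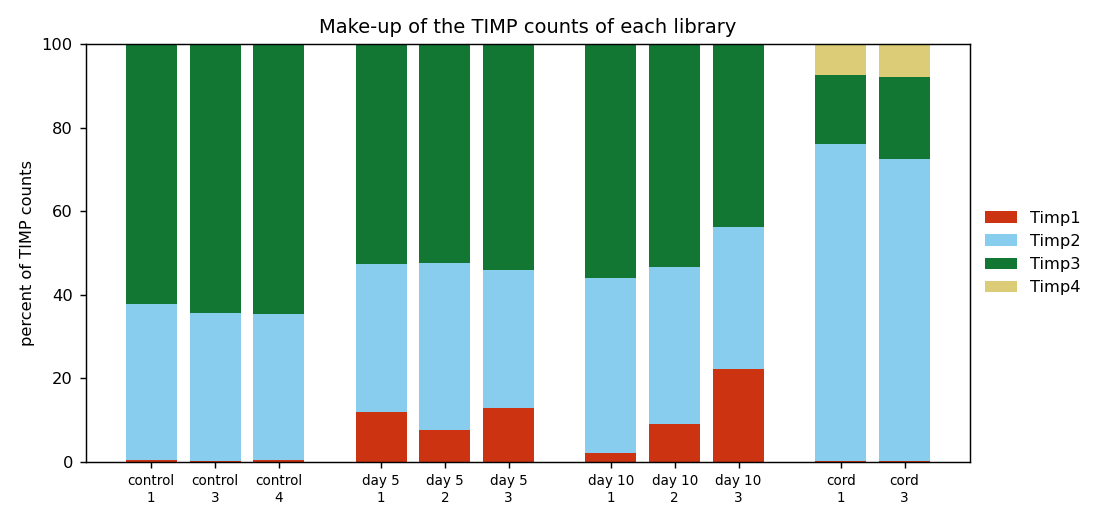
Share of each TIMP gene in the summed TIMP counts of a library, in percent, for every library (numbers are replicates; cord is whole cord). The Timp1 part reaches 22.3% in day 10 replicate 3 and is at most 0.378% in control, while Timp2 leads in whole cord with 75.8% and 72.3%.

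Serpina3g, an intracellular serpin that blocks cysteine cathepsins and is known as a target of interferon-gamma and NF-kappa-B in leukocytes, had the largest change of the 9 at day 5. It had 106, 116 and 149 CPM at day 5, against 1.96, 1.03 and 2.202 CPM in control. At day 10 it had 14.2, 22.4 and 46.5 CPM. The 3 groups formed separate ranges, with day 5 highest, day 10 between and control lowest. The log2 fold change against control was 6.15 at day 5 (SE 0.51, adjusted p = 8.66e-05) and 3.99 at day 10 (SE 0.49, adjusted p = 0.00147). Without day 10 replicate 3 the day 10 value was 3.38 (adjusted p = 4.77e-05). In raw counts Serpina3g summed to 2889 at day 5 and 756 at day 10, against 49 in control.

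Serpina3n, a secreted serpin known to block granzyme B and leukocyte elastase and used as a marker of reactive astrocytes, moved less than Serpina3g. It had 69.5, 80.3 and 86.9 CPM at day 5, against 65.6, 50.3 and 48.6 CPM in control, so that the lowest day 5 library lay just above the highest control library. The log2 difference was 0.52 (SE 0.20, 95% interval 0.10 to 0.95) and did not pass the test (adjusted p = 0.0716), although it did without the filter on low counts (adjusted p = 0.0345) and without control replicate 1 (adjusted p = 0.0497). At day 10 it had 46.9, 75.4 and 82.4 CPM, with replicate 1 below every control library. The log2 difference from control was then 0.32 (95% interval -0.11 to 0.74), and 0.15 without day 10 replicate 3 (adjusted p = 0.749). The astrocyte markers moved at the same time: their sum was 1092 to 1163 CPM at day 5, 1026 to 1159 CPM at day 10 and 847 to 904 CPM in control, with 3 of the 10 higher and 3 lower at day 5. Slc1a2, the leading marker of that list, stood at only 5.16 to 43.4 CPM in the sorted libraries, against 3099 and 3159 CPM in whole cord. The sums in sorted cells therefore rest mostly on other listed genes. The part of astrocytes in the Serpina3n level was not tested.

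The Serpina3 genes of the mouse arose by duplication, and reads can fall on stretches that they share. Of the 100-base windows of the Serpina3g transcripts, 3.49% occur also in Serpina3f, Serpina3h, Serpina3i, Serpina3n or the pseudogene Serpina3e-ps. For Serpina3n the share is 0.204%. Serpina3g made up 51.0%, 51.1% and 57.0% of all Serpina3 counts at day 5, against 2.89%, 2.01% and 4.06% in control. At day 10 the share was 20.8%, 20.8% and 30.3%. Summed over the whole cluster, counts rose by 2.01 on the log2 scale at day 5 (adjusted p = 0.000293) and by 0.93 at day 10 (adjusted p = 0.0292). Its close relatives were scarcer. Serpina3f held 445 counts at day 5 against 35 in control (ratio 15.3, 95% counting interval 10.9 to 22.3). Control replicate 4 held 33 of these 35, and without it the ratio was 169 (interval 46.6 to 1403). Serpina3i held 135 counts at day 5 against 2 in control (ratio 81.4, interval 22.1 to 679). Both control counts lay in control replicate 4, and without it Serpina3i was at least 34.3-fold higher. Serpina3h held 108 counts at day 5 and none in control, which is at least 43.4-fold higher against a floor of 3 counts over the control group, the floor used for every such bound. Such intervals and bounds reflect counting error alone.

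**Figure D3:**
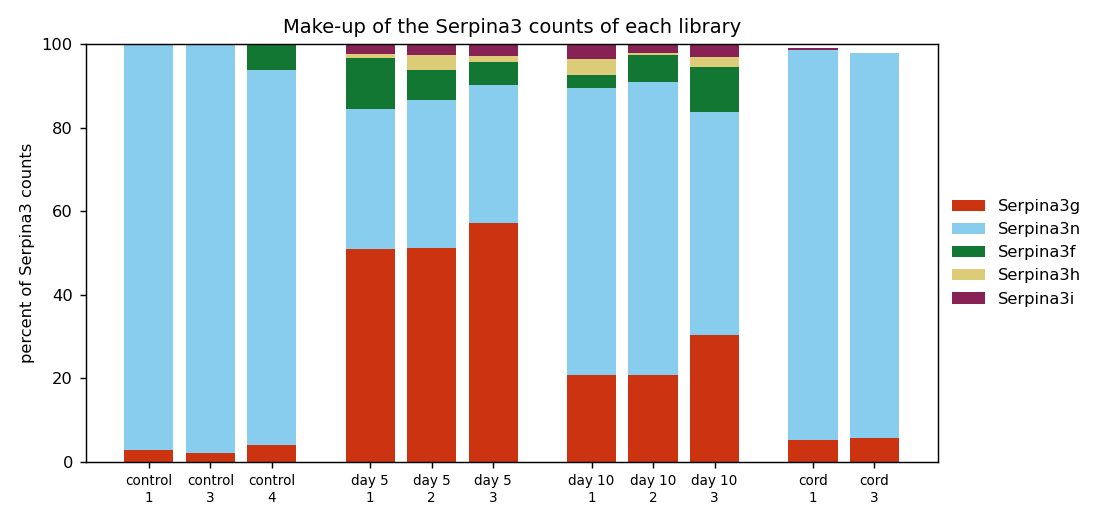
Share of 5 Serpina3 genes in the summed Serpina3 counts of a library, in percent (numbers are replicates; cord is whole cord). Serpina3g takes 51.0% to 57.0% at day 5, 20.8% to 30.3% at day 10 and at most 4.06% in control; what is missing to 100 percent belongs to Serpina3c and Serpina3m, and is visible in whole cord.

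Serpine2, also called protease nexin 1, is a surface-held serpin that blocks thrombin, urokinase and plasmin. It had 510, 515 and 371 CPM at day 5 and 408, 444 and 445 CPM at day 10, against 274, 292 and 286 CPM in control. All 6 disease libraries lay above the 3 control libraries. The log2 fold change was 0.71 at day 5 (SE 0.14, adjusted p = 0.00232) and 0.60 at day 10 (SE 0.14, adjusted p = 0.0115). Without day 10 replicate 3 it was 0.57 (adjusted p = 0.0350).

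Serpinf1, the pigment epithelium-derived factor, belongs to the serpin family by fold but does not inhibit proteases and is known for effects on vessels and neurons. It had 359, 291 and 310 CPM at day 5 and 410, 345 and 437 CPM at day 10, against 333, 401 and 412 CPM in control. Both disease groups overlapped the control. The log2 difference was -0.26 at day 5 (95% interval -0.55 to 0.04, adjusted p = 0.207) and 0.06 at day 10 (95% interval -0.24 to 0.36, adjusted p = 0.838), or -0.02 without day 10 replicate 3. A2m, alpha-2-macroglobulin, had 499, 555 and 457 CPM at day 5 and 628, 635 and 486 CPM at day 10, against 643, 682 and 517 CPM in control. These ranges overlapped too. The log2 difference was -0.29 at day 5 (95% interval -0.61 to 0.04, adjusted p = 0.186) and -0.08 at day 10 (95% interval -0.40 to 0.24, adjusted p = 0.799), or 0.03 without day 10 replicate 3.

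**Figure D4:**
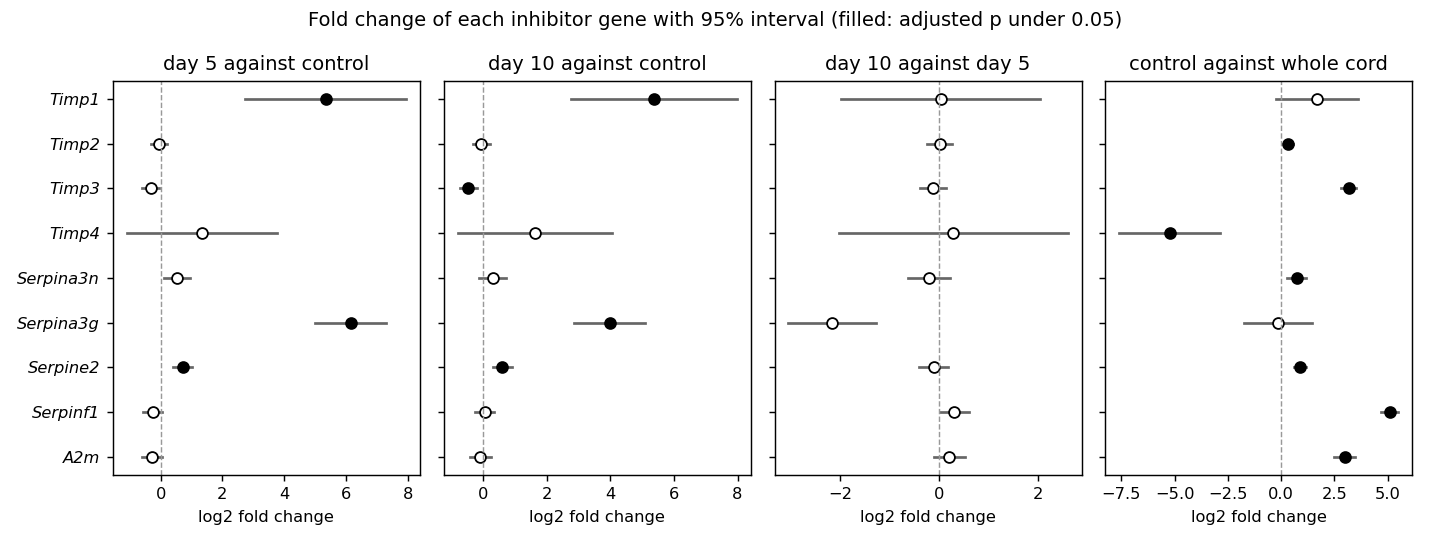
Log2 fold change of each inhibitor gene in the 4 comparisons, with its 95% interval; a filled point passed an adjusted p of 0.05 and the axes differ between panels. Timp1, Serpina3g and Serpine2 are filled on the right of 0 at day 5 and day 10 against control, Timp3 is filled on the left of 0 at day 10, and none is filled at day 10 against day 5. In control against whole cord, Timp4 lies farthest left at -5.22 and Serpinf1 farthest right at 5.08.

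Markers of several cell types moved along with the genes that rose. The 10 T cell and pan-leukocyte markers summed to 123 to 256 CPM at day 5 and 61.9 to 100 CPM at day 10, against 3.60 to 12.5 CPM in control, and all 10 were higher in both comparisons. Ptprc, the pan-leukocyte gene CD45, had 49.97, 82.1 and 39.4 CPM at day 5 and 24.2, 24.4 and 35.5 CPM at day 10, against 6.80, 1.44 and 1.84 CPM in control. The endothelial list summed to 564 to 653 CPM at day 5, 438 to 490 CPM at day 10 and 278 to 320 CPM in control. Cdh5 made up most of each of these sums, and 2 of 9 tested endothelial markers were called higher at each stage. Among the other lists, the microglia and macrophage markers summed to 91.9 to 118 CPM at day 5, 105 to 181 CPM at day 10 and 81.5 to 102 CPM in control. Of these, Tmem119 alone stood at 29.3 to 35.8 CPM in control, against 6.29 and 8.25 CPM in whole cord. The neutrophil and monocyte markers summed to 20.2 to 121 CPM at day 5, 18.0 to 78.5 CPM at day 10 and 2.23 to 43.5 CPM in control. The fibroblast markers summed to 35766 to 48356 CPM at day 5 and 31283 to 63990 CPM at day 10, above the control range. They did not move together. Of the 10, 4 were higher and 3 lower at day 5 (median log2 0.21). At day 10, 4 were higher and 1 was lower (median log2 0.33). Col1a1 alone stood at 12979 to 18690 CPM at day 5, against 5311 to 8335 CPM in control. The ependymal markers summed to 56.2 to 62.3 CPM at day 5 and 52.7 to 64.2 CPM at day 10, against 83.0 to 96.5 CPM in control. Rarres2 alone gave 45.8 to 52.8 CPM at day 5, 49.8 to 55.6 CPM at day 10 and 77.4 to 84.5 CPM in control. In whole cord it stood at 1.72 and 2.42 CPM, so this sum mostly follows a gene that was higher in the sorted cells. The immediate-early genes, which cells also switch on during dissociation, summed to 6947 to 13064 CPM at day 5 and 6942 to 21255 CPM at day 10, against 12669 to 23569 CPM in control. Of these 16 genes, 2 fell at day 5, with a median log2 difference of -1.06. The part of any of these in the counts of Timp1, Serpina3g, Serpine2 and Timp3 was not tested.

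The second question is whether the inhibitors differed between the later and the earlier stage. Between day 10 and day 5 none of the 9 members passed edgeR's test in either direction, where 0.0689% of all genes rose and 0.0438% fell. At an unadjusted p under 0.05, Serpinf1 was higher and Serpina3g was lower. Serpina3g had 14.2, 22.4 and 46.5 CPM at day 10, against 106, 116 and 149 CPM at day 5, and the groups did not overlap. Its log2 difference was -2.16 (SE 0.39, 95% interval -3.05 to -1.28, adjusted p = 0.109). DESeq2 (adjusted p = 6.28e-07) and limma voom (adjusted p = 0.00874) each called 1 member lower, which was Serpina3g, and called none higher. Without day 10 replicate 3 edgeR called it too, at -2.74 (adjusted p = 0.000727). For Timp1 the log2 difference was 0.04 with a 95% interval of -1.98 to 2.05, so a change of several fold in either direction lay within the interval. Serpinf1 differed by 0.31 (95% interval 0.01 to 0.61, adjusted p = 0.578). Among the rest, Timp4 counts lay slightly higher in all 3 day 10 libraries, at a level of 2.89 to 3.29 CPM against 2.50 to 2.62 CPM.

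In day 10 libraries Timp1, Serpina3n, Serpina3g and Serpine2 each had their lowest value in replicate 1 and their highest in replicate 3. For Serpine2, replicates 2 and 3 were nearly equal, at 444.4 and 444.7 CPM. Col1a1 also differed among these pools, at 17267, 11272 and 28146 CPM in replicates 1, 2 and 3. Over the 9 sorted libraries, log2 CPM of Timp1 and Serpina3g correlated at r = 0.94, Timp1 and Serpine2 at 0.85, and Serpina3g and Serpine2 at 0.86. Timp3 ran the other way, at -0.87 with Timp1 and -0.85 with Serpine2. These are descriptions over 9 libraries that share 3 groups. By the same measure the gene most like Timp1 of 11503 genes was the chemokine gene Cxcl10 (r = 0.99). The gene most like Serpina3g was the endothelial gene Ecscr (0.99), followed by the interleukin-1 receptor gene Il1r1 (0.99). Nearest to Serpine2 was the zinc transporter gene Slc30a1 (0.96), and nearest to Timp3 was the mitochondrial kinase gene Pink1 (0.98). Serpina3n was most like Wars, a tRNA synthetase gene (0.95).

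Levels of different genes can be set side by side only per length, here as CPM per kilobase of exon in GENCODE vM21 (GRCm38). The length is the union of all annotated exons of a gene. Which transcripts the cells used was not determined, so the order depends in part on the annotation. In control the order was Serpinf1 (162), Timp2 (118), Timp3 (101), A2m (87.5), Serpine2 (34.3), Serpina3n (26.6), Timp1 (3.72), Serpina3g (0.823) and Timp4 (0.169). Timp3 and A2m, with ranges of 93.0 to 105 and 73.7 to 97.1, overlapped in that order, and Serpine2 and Serpina3n, at 33.1 to 35.3 and 23.6 to 31.8, lay close without overlap. At day 5 Timp1 led the mean values at 152 CPM per kilobase with a range of 103 to 185, which overlapped that of Serpinf1 (123 to 152) and Timp2 (108 to 121). After these came Timp3 (80.2), A2m (71.8), Serpina3g (58.8), Serpine2 (56.2), Serpina3n (38.2) and Timp4 (0.434). Serpina3g, with a range of 50.6 to 70.9, overlapped both A2m (65.2 to 79.1) and Serpine2 (44.8 to 62.1). At day 10 Serpinf1 led at 168, ahead of Timp1 (156), Timp2 (115), A2m (83.0), Timp3 (73.6), Serpine2 (52.2), Serpina3n (33.1), Serpina3g (13.2) and Timp4 (0.532). The Timp1 range of 26.5 to 333 spanned those of Serpinf1, Timp2, A2m, Timp3 and Serpine2. Timp4 was lowest in all 3 sorted groups.

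The proteases that these inhibitors meet changed as well. Among 27 tested metalloproteinases that TIMPs can hold, 12 rose and 1 fell at day 5 (median log2 0.90, against 0.0011 over all genes), and 10 rose and 1 fell at day 10 (median 0.74, against 0.0122). With day 10 replicate 3 left out, 7 rose and 20 did not pass (median 0.70). Over all genes, 13.3% rose and 10.6% fell at day 5, and 8.49% rose and 4.98% fell at day 10. Without day 10 replicate 3 these shares were 4.19% and 2.21%. The stromelysin Mmp10 held 791 counts at day 5 and none in control, which is at least 318-fold higher, and the macrophage elastase Mmp12 was at least 64.3-fold higher. At day 10 Mmp10 held 43 counts over all libraries of the group, and Mmp12 was at least 22.1-fold higher than in control. With day 10 replicate 3 left out, Mmp10 did not pass the test (adjusted p = 0.189). Mmp14, the membrane-bound activator of pro-Mmp2, had 670 ± 97.3 CPM at day 5 and 707 ± 137 CPM at day 10, against 310 ± 14.5 CPM in control (SD, n = 3 each). At day 10 the sheddase Adam12 rose by 2.50 on the log2 scale (adjusted p = 0.00148) and Adam33 fell by 1.64 (adjusted p = 0.0290), a call that was lost without replicate 3 (adjusted p = 0.107). Summed over 18 Mmp genes and the 4 TIMP genes, the ratio of TIMP to Mmp CPM was 0.799, 0.816 and 0.695 at day 5 and 0.644, 0.684 and 0.693 at day 10, against 1.18, 1.06 and 1.16 in control. All disease libraries lay below all control libraries. The TIMP sums overlapped between day 5 and control, at 1232 to 1275 and 1251 to 1336 CPM, while the Mmp sums did not, at 1519 to 1834 and 1065 to 1243 CPM. At day 10 the TIMP sums were 1139, 1057 and 1259 CPM, with replicates 1 and 2 below the control range. The Mmp sums at day 10 were 1768, 1545 and 1816 CPM. The ratio is one of transcript counts and gives no measure of free enzyme. Neither sum is scaled to length, so Timp1, with 888 exonic bases, weighs little beside Timp3, with 8144. Per kilobase, mean Timp1 was 3.72 CPM in control, 152 at day 5 and 156 at day 10, and mean Timp3 was 101, 80.2 and 73.6. The sums and the lower ratio are therefore given for unscaled counts only, and neither was computed per kilobase.

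Other serpins rose in part. Of 17 tested, 11 rose and 6 did not pass the test at day 5 (median log2 1.39), beside 13.3% of all genes that rose. At day 10, 5 rose and 12 did not pass (median 1.32), beside 8.49% of all genes that rose. Leaving out day 10 replicate 3, 2 of 18 rose (median 1.08), beside 4.19% of all genes. These were Serpina3h (adjusted p = 0.0166) and Serpina3i (adjusted p = 0.00742), while Serpina3f did not pass (adjusted p = 0.416). The serpins that rose at day 5 included Serpina3i and Serpina3f from the Serpina3 cluster. Serpinh1, the collagen chaperone of the endoplasmic reticulum, rose by 0.75 at day 10 (adjusted p = 0.0160), and the intracellular serpin Serpinb6b rose by 1.32 (adjusted p = 0.0122). Both calls were lost without replicate 3 (adjusted p = 0.0705 and 0.0796). Of 21 serine proteases and plasminogen system genes, 6 rose and 5 fell at day 5 (median log2 0.34), beside 13.3% and 10.6% of all genes. At day 10, 7 rose and 2 fell (median 0.24), beside 8.49% and 4.98% of all genes, and without replicate 3, 6 of 22 rose (median 0.32). Plaur, the urokinase receptor, rose by 2.72 at day 5 and 2.63 at day 10, and the serine protease Prss35 rose by 3.55 at day 10. Granzyme B, the cytotoxic lymphocyte protease that Serpina3n can block, held 166 counts at day 5 and none in control, which is at least 66.7-fold higher. At day 10 it held 73 counts and was at least 23.7-fold higher.

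Other inhibitor families did not share one direction. Of 22 tested, 7 rose and 7 fell at day 5 (median log2 -0.38), beside 13.3% and 10.6% of all genes. At day 10, 6 rose and 5 fell (median -0.10), beside 8.49% and 4.98% of all genes. Without replicate 3, 3 of 23 rose and 4 fell (median -0.16), beside 4.19% and 2.21% of all genes. Itih3, a heavy chain that binds hyaluronan, rose by 4.97 at day 5 and 4.36 at day 10, and the leukocyte elastase inhibitor Slpi rose by 3.10 and 3.62. The day 10 call of Slpi was lost without replicate 3 (adjusted p = 0.106). Reck, a membrane-anchored inhibitor of metalloproteinases, had 40.3 ± 2.25 CPM at day 5, against 127 ± 6.90 CPM in control (log2 -1.66, adjusted p = 1.73e-05; SD, n = 3 each), and at day 10 it had 60.1 ± 9.63 CPM (log2 -1.08, adjusted p = 0.000487). Among 13 tested clearance and cell-surface receptors, 5 rose and 4 fell at day 5 (median log2 0.45), beside 13.3% and 10.6% of all genes. At day 10, 5 rose and 1 fell (median 0.57), beside 8.49% and 4.98% of all genes, and without replicate 3, 1 of 14 rose and 1 fell (median 0.08). Lrp1, the receptor that takes up A2m and serpin complexes, had 2973 ± 137 CPM at day 5, against 5988 ± 148 CPM in control (log2 -1.01, adjusted p = 0.000127; SD, n = 3 each). At day 10 it had 4726 ± 220.1 CPM and did not pass the test (log2 -0.34, adjusted p = 0.0902). The hyaluronan receptor Cd44 rose by 2.35 at day 5 and 1.69 at day 10, and Vldlr fell by 1.08 at day 10.

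The last question is which inhibitors stood out in GFP+ cells of healthy cord against the whole tissue. Of the 9 members, 6 were higher in control and 1 was lower, where 26.7% of the 16562 genes tested were higher and 28.6% were lower. CPM values in this comparison come from a fit of these 5 libraries. Serpinf1 had 358 ± 40.1 CPM in control (SD, n = 3), against 11.2 and 10.0 CPM in whole cord. Its log2 fold change was 5.08 (SE 0.18, adjusted p = 1.42e-06). Timp3 had 769 ± 49.8 CPM in control, against 78.7 and 92.6 CPM in whole cord, and the log2 difference was 3.17 (SE 0.15, adjusted p = 3.60e-06). A2m had 576 ± 76.8 CPM in control, against 84.9 and 61.9 CPM in whole cord (log2 2.97, SE 0.20, adjusted p = 1.67e-05). In these 3 genes every control library was several-fold above both whole cord libraries. The mural cell markers also summed to 3425 to 6353 CPM in control, against 156 to 264 CPM in whole cord, with 9 of 10 called higher. Their part in these 3 genes was not tested.

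The differences of Serpine2, Serpina3n and Timp2 were smaller. Serpine2 had 267 ± 7.57 CPM in control, against 140 and 149 CPM in whole cord (log2 0.89, SE 0.11, adjusted p = 0.000424). Serpina3n had 51.5 ± 8.88 CPM in control, against 33.4 and 28.6 CPM in whole cord (log2 0.73, SE 0.19, adjusted p = 0.0141). Timp2 had 433 ± 3.74 CPM in control, against 360 and 341 CPM in whole cord (log2 0.31, SE 0.11, adjusted p = 0.0481). The call for Serpina3n was lost when whole cord replicate 1 or 3 was left out (adjusted p = 0.0547 and 0.143). The call for Timp2 held in 3 of 11 alternative fits, with adjusted p up to 0.312.

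Timp4 went the other way. It had 0, 29 and 0 counts in control, against 285 and 401 counts in whole cord, where its level was 35.0 and 37.1 CPM. The log2 fold change was -5.22 (SE 1.01, adjusted p = 0.00345), and the call was lost with DESeq2 (adjusted p = 0.131), without the filter (adjusted p = 0.0695) and without whole cord replicate 1 (adjusted p = 0.0561). Its host gene Syn2, with Syn1 and Syn3, summed to 10.6 to 25.1 CPM in control and 464 to 517 CPM in whole cord, and 1.53% of the exonic bases of Timp4 overlap Syn2. Serpina3g and Timp1 did not pass the test. Serpina3g had 1.63 ± 0.591 CPM in control, against 1.84 and 1.76 CPM in whole cord. Timp1 had 3.11 ± 1.87 CPM in control, against 1.23 and 0.741 CPM in whole cord (log2 1.66, 95% interval -0.26 to 3.59), and it would be called without control replicate 3 (log2 2.10, adjusted p = 0.0157).

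In the same comparison, Serping1, the C1 inhibitor, was higher by 7.11 on the log2 scale in control. Of 23 tested metalloproteinases 14 were higher and 4 lower (median log2 1.79, against 0.0384 over all genes), beside 26.7% and 28.6% of all genes. Mmp2 had 583 ± 92.9 CPM in control against 8.18 ± 1.67 CPM in whole cord (SD, n = 3 and 2), and Mmp13 held 635 counts in control and none in whole cord. The neuronal proteoglycan inhibitor Spock1 was lower in control by 7.13 and the oligodendrocyte protease Klk6 by 7.75. The ratio of summed TIMP to Mmp CPM was 1.18, 1.06 and 1.16 in control and 2.26 and 2.1997 in whole cord. All 16 immediate-early genes, which cells switch on during dissociation, were higher in control, with sums of 12669 to 23569 CPM against 234 to 245 CPM. Their part in these differences was not tested, and dissociation and sorting cannot be told apart from cell type here, since only the sorted libraries went through them.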

How the data were processed

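The authors deposited raw counts per gene for 11 libraries, per the file headers. The submitters' processing notes list the mm9 build, HTSeq (0.6.1), SAMtools (0.1.19), Bowtie2 (2.2.1), TopHat2 (2.0.11) and DESeq2. Neither a gene annotation nor a strand setting is given in the sources used here. The deposited counts were tested with edgeR's quasi-likelihood test (4.0.16, R 4.3.3) after TMM scaling and filterByExpr (minimum count 10), and p-values were adjusted by Benjamini-Hochberg over all genes tested. The 9 sorted libraries formed one fit (15972 genes), and the control and whole cord libraries another (16562 genes). DESeq2 (1.42.0), limma voom (3.58.1), other scalings, no filter, a replicate block and leaving out each library were the alternatives. The script was tested on simulated counts. Of the gene symbols, 24 turned into dates were restored and 3401 repeated symbols were kept by identifier.

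The members and gene lists were chosen with earlier results of these data known. Named genes were all members, the 2 called genes of each list with the largest change among those of at least 5 CPM, the 2 genes most like each member, and the leading marker of each cell type list. Mmp14, Reck and Lrp1 were named from the lists after their values were seen. Exon lengths and overlaps come from GENCODE vM21 (GRCm38) and promoters from RefSeq, matched by identifier and symbol and without conversion from mm9. P-values between sorted groups measure the spread between pools. Library totals of 7123291 to 12238751 counts set the precision, and counts of PCR-amplified reads are not counts of independent molecules.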

Additional observations from a re-analysis of the deposited data

How the results depend on the processing

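Over 423 alternative values of single members, 374 kept their direction and their side of the threshold, 26 lost a call, 10 gained one and 13 changed sign. Serpina3g and Serpine2 at day 5 and Serpina3g at day 10 kept their calls in every alternative, as did Timp3, Serpine2, Serpinf1 and A2m in control against whole cord. Day 10 against day 5 depended most on the method: 18 genes were called, against 107 without a filter, 184 with DESeq2, 33 with limma voom and 2 to 300 when 1 library was left out. Leaving out 1 library gave 2512 to 3585 genes at day 5 against control (3806 with all, fewest without day 5 replicate 3), 1071 to 2078 at day 10 against control (2151 with all, fewest without day 10 replicate 3) and 6088 to 10017 in control against whole cord (9158 with all, fewest without whole cord replicate 1). Members called lower numbered 1 with DESeq2 and 1 with limma voom at day 5 against control and at day 10 against day 5, and 0 in control against whole cord without a filter and with DESeq2. When 1 library was left out they numbered 0 to 1 at day 10 against control, at day 10 against day 5 and in control against whole cord, and members called higher 2 to 3, 0 to 0 and 4 to 7. Deviations of same-numbered libraries from their group means correlated weakly (r from -0.08 to 0.17). Differently numbered libraries were not read beside them, so these values do not settle whether the numbers mark a shared day or batch. With a replicate block, 1 member was called higher and 0 lower at day 10 against control. Serpine2 (adjusted p = 0.0720), Timp1 (0.130) and Timp3 (0.151) missed the threshold there, as did Timp1 at day 5 (0.0827). Sign changes touched only members that had not been called. The Timp1 difference of day 10 from day 5 (0.04) was -0.59 with limma voom, -0.27 with the replicate block and -1.17 to 0.54 with 1 library left out. With 1 library left out, day 10 against control ranged from -0.0323 to 0.15 for Serpinf1, -0.18 to 0.0305 for A2m and -0.13 to 0.0292 for Timp2, and day 10 against day 5 from -0.0544 to 0.0907 for Timp2 and -0.36 to 0.0052 for Serpina3n. Serpina3g in control against whole cord ranged from -0.35 to 0.14, and the summed Serpina3 counts gave 0.70. The cause of these shifts was not tested. The Timp4 result in disease against control rests on 1 control library, replicate 3, which held all 29 control counts. In control against whole cord the Timp4 call held without that library (log2 -11.4, adjusted p = 2.13e-05, with no control counts left).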
